A study of Bos taurus and Sus scrofa with 6 samples.

Results

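KIT is the cell-surface receptor tyrosine kinase for stem cell factor, and KITLG is the gene of that ligand. Both were followed across the cell types of the prepubertal testis of cattle and pigs by droplet single-cell RNA-sequencing. They were taken by gene symbol from the gene list of each species, so 2 genes were described of 19994 in the cattle table and of 22694 in the pig table. The symbols stood beside the identifiers ENSBTAG00000002699 (KIT) and ENSBTAG00000017549 (KITLG) in cattle, and ENSSSCG00000008842 (KIT) and ENSSSCG00000035495 (KITLG) in pigs. The cattle group held 3 Holstein animals of 4.5 months. The pig group held 3 animals of mixed breed, 3 months old, and all testes were removed by castration. Each animal gave 1 library, for which about 8000 live cells were loaded, so the animal was the replicate and p-values measure the spread between animals. The main fits had no term for the animal, so sums of several cell types from 1 animal counted as independent.

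KITLG is made by somatic support cells as a membrane-bound or a shed protein. When it binds KIT, paired receptors phosphorylate each other, and signals run on through PI3 kinase and AKT, the RAS and MAP kinase chain, phospholipase C gamma, SRC-family kinases and STAT factors. In rodent testes, Sertoli cells make the ligand and KIT appears on spermatogonia as they commit to differentiation, while undifferentiated spermatogonia carry little of it. KIT is also known on Leydig cells, mast cells, melanocytes and haematopoietic progenitors.

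The libraries differed strongly in depth. The total of unique molecular identifiers (UMIs, each standing for 1 captured RNA molecule) ran from 5805223 to 53325608 in cattle and from 6245189 to 40099873 in pigs, with the library of animal 1 the shallowest in both species. After cell calling, 17482 cattle cells and 9206 pig cells were kept, and the median UMIs per cell were 789, 1683 and 4462 in cattle 1 to 3 and 889, 3856 and 5878 in pigs 1 to 3. By animal, 3444, 8138 and 5900 cells were kept in cattle and 3162, 3808 and 2236 in pigs. The number of cattle 2 lies above the about 8000 live cells loaded, and the reason was not tested. Pairs of libraries shared 8 to 61 cell barcodes. Of 23 cattle clusters 15, and of 27 pig clusters 11, held over 80% of their cells from 1 library. Clusters were named from marker genes (for example "Leydig-like"), without KIT, KITLG or the genes of their pathway. Levels are given as CPM, the UMIs of a gene per 1000000 UMIs of all cells of that type in 1 animal. Where an interval is given it is the exact 95% Poisson interval and covers counting error only.

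In the pig genome build Sscrofa11.1, RefSeq places KIT on the plus strand of chromosome 8, from 41402334 to 41492306, with 1 transcript of 22 exons and 3719 bases. KITLG lies on the plus strand of chromosome 5, from 94016992 to 94110219, with 3 transcripts, the longest of 10 exons and 5803 bases. No other annotated gene overlapped either one (0 in both cases). Each value covers the whole gene, without a split into exons or isoforms, so the membrane-bound and shed forms of the ligand were not told apart.

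Among the named cell types KIT was highest in Leydig-like cells in cattle and in endothelial-like cells in pigs, and next highest in germ-like cells in both species. Of 924 KIT UMIs in cattle cells, 516 lay in Leydig-like cells and 281 in germ-like cells. Of 1877 KIT UMIs in pig cells, 1016 lay in endothelial-like cells, 710 in germ-like cells and 24 in Leydig-like cells. Unnamed clusters held 17 KIT UMIs in cattle and 92 in pigs.

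**Figure D1:**
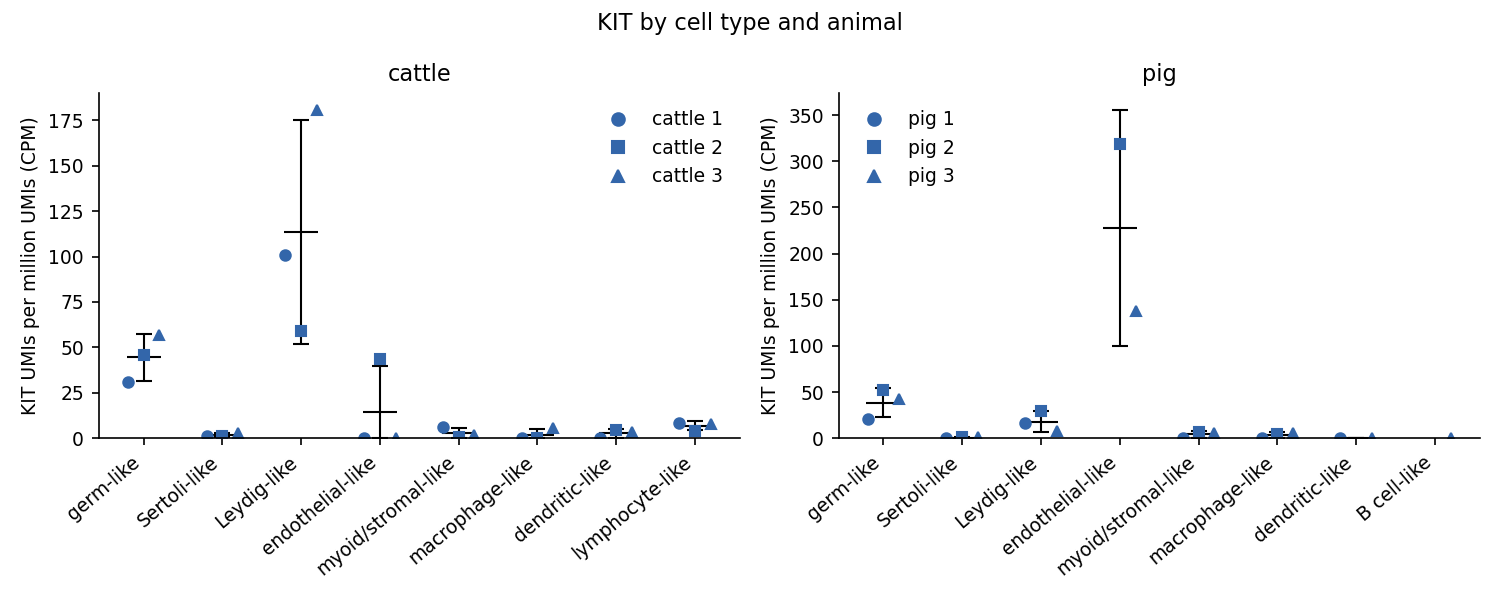
KIT level in CPM (vertical axis, a separate scale for each species) by cell type, with 1 symbol for each animal that gave at least 20 cells of the type. The long bar is the mean and the whisker the SD. The cattle Leydig-like points lie at 59.2, 101 and 181 CPM, and the pig endothelial-like points at 138 and 318 CPM.

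Leydig cells make androgens and INSL3 in the space between the tubules. In cattle their KIT level was 101 CPM in animal 1 (91 UMIs, 81.1 to 124), 59.2 CPM in animal 2 (57 UMIs, 44.8 to 76.7) and 181 CPM in animal 3 (368 UMIs, 163 to 200.1), or 114 ± 61.8 CPM (SD, n = 3). The 3 intervals did not overlap each other, and in each animal the level was above that of every other named cell type. In cattle 2 the interval overlapped those of germ-like cells (35.2 to 59.3) and endothelial-like cells (15.95 to 94.6). In cattle 1 the intervals of endothelial-like and dendritic-like cells, each with 0 KIT UMIs, reached 217 and 122 CPM. Both overlapped the Leydig-like interval of that animal. Against all other cells of the same animals the log2 fold change was 4.20 (SE 0.52, adjusted p = 0.0012, edgeR), in a fit that called 14.8% of all genes tested. Without cattle 2 the value was 4.27 with an adjusted p of 0.0552, and that fit called 0 genes. The 3 clusters of this name each came almost wholly from 1 animal, cluster 4 with 900 cells of cattle 1, cluster 18 with 461 cells of cattle 2 and cluster 5 with 364 cells of cattle 3. Their KIT levels were 92.4, 60.0 and 187 CPM in that order. A further cluster of 131 cells, all from cattle 1 and led by Leydig genes such as INSL3, stayed unnamed and held 116 CPM of KIT.

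Pig Leydig-like cells held little KIT. Their level was 16.4 CPM in pig 1 (13 UMIs), 29.97 CPM in pig 2 (8 UMIs) and 7.70 CPM in pig 3 (3 UMIs), a mean of 18.03 ± 11.2 CPM (SD, n = 3). Against other cells the log2 fold change was -0.91 (SE 0.58, adjusted p = 0.35), where 7.67% of genes were called. Against Sertoli-like cells alone KIT was higher in Leydig-like cells of both species, by 5.998 in cattle (adjusted p = 1.69e-08, 19.5% called) and by 4.29 in pigs (adjusted p = 0.00012, 13.5% called). The difference between the species in the contrast of Leydig-like with all other cells was itself tested as an interaction. It was 5.38 on the log2 scale (SE 0.81, adjusted p = 0.00084) in favour of cattle, in a fit that called 2.87% of genes, and stayed past the threshold without any 1 of the 6 animals (4.33 to 5.92). The interaction compares the contrast with other cells, not the Leydig-like levels alone, whose means were 114 and 18.03 CPM. Among the other cells, endothelial-like cells held 6 KIT UMIs in cattle and 1016 in pigs. The animals also differed in breed, age and reference genome, which cannot be told apart from species.

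The share of cells with a KIT UMI rose with depth. In cattle Leydig-like cells it was 9.14%, 10.4% and 55.0% in animals 1 to 3, at median depths of 950.5, 1852 and 5144 UMIs per cell. Sertoli-like cells served as the background, with 0.198%, 0.295% and 1.73% at 1228, 2700 and 6257 UMIs. Thinned to 500 UMIs per cell, which left out 39 shallower Leydig-like cells, the Leydig-like shares were 5.64%, 3.55% and 8.23%, against 0%, 0.0422% and 0.151% in Sertoli-like cells. In 3 of 3 animals the Leydig-like share exceeded that of the remaining cells, with a two-sided exact permutation p of 0.1, the smallest that 3 against 3 can give.

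KIT also marks mast cells and melanocytes, so markers of other cells were read in the same sums. In cattle Leydig-like cells the mast cell genes CPA3, HDC, MS4A2, FCER1A and HPGDS each had 0 UMIs in 1776 cells, and GATA2 had 2. Leydig markers summed to between 93187 and 153227 CPM in the 3 animals, endothelial markers to 2.0 to 5.2 CPM and germ cell markers to 38.4 to 45.4 CPM. Neural crest markers, with the melanocyte genes DCT and PMEL, summed to 0 to 3.3 CPM. Other sets were higher, with Sertoli markers at 1056 to 1561 CPM, stromal at 598 to 1757 CPM and myoid at 834 to 1063 CPM. RNA outside cells held KIT as well. Barcodes with at most 50 UMIs in the cattle tables held 36.5 CPM of KIT in animal 1 (25.7 to 50.3), 10.96 CPM in animal 2 (6.50 to 17.3) and 10.8 CPM in animal 3 (4.95 to 20.6). The pig tables list only deeper barcodes.

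KIT UMIs were found in germ-like cells of every animal. In cattle the level was 30.7 CPM in animal 1 (9 UMIs), 46.1 CPM in animal 2 (60 UMIs) and 56.8 CPM in animal 3 (212 UMIs), or 44.5 ± 13.1 CPM (SD, n = 3). In pigs it was 21.0 CPM in animal 1 (43 UMIs), 51.9 CPM in animal 2 (178 UMIs) and 42.2 CPM in animal 3 (489 UMIs), or 38.4 ± 15.8 CPM (SD, n = 3). The level of cattle 1 (14.04 to 58.3) overlapped that of its near-empty barcodes (36.5 CPM, 25.7 to 50.3). The part of RNA from outside cells in it was not tested. Sertoli-like cells of the same animal held 1.52 CPM. The shallowest library had the lowest germ-like level in both species. Germ cell markers summed to between 3165 and 3878 CPM in cattle and between 2759 and 2904 CPM in pigs.

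Sertoli cells line the tubule and touch the germ cells. Compared with Sertoli-like cells, germ-like cells held more KIT, with a log2 fold change of 3.78 (SE 0.59, adjusted p = 5.66e-06) in the cattle animals. In pigs the same pair differed by 5.52 (SE 0.58, adjusted p = 3.03e-07). These fits over all cell types called 49.6% and 45.6% of genes for that pair. Against all other cells, which hold the Leydig-like and endothelial-like cells, the cattle value was 0.20 (SE 0.60, adjusted p = 0.81), with 49.9% of genes called. The pig value was -0.11 (SE 0.61, adjusted p = 0.90), with 37.5% called. With the animal as a block the cattle value became 0.76 (adjusted p = 0.00073), and without cattle 1 it was 1.29 (adjusted p = 0.0224). It was -0.25 without cattle 2 and -0.20 without cattle 3, neither past the threshold. The pig value changed sign between settings and never passed the threshold. The interaction between species was 0.22 (SE 0.93, adjusted p = 0.95), with 16.1% of genes called. Scaling by total UMIs moved the median of all genes in the cattle comparison from -0.16 to 0.94, and KIT to 1.32 (adjusted p = 0.0825).

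The share of germ-like cells with a KIT UMI was 8.43%, 23.1% and 51.8% in cattle 1 to 3, at median depths of 3514, 6189 and 16908 UMIs. In pigs 1 to 3 it was 6.04%, 33.5% and 38.1%, at 2811, 14976 and 14824 UMIs. Thinned to 500 UMIs per cell the cattle shares were 3.61%, 0.926% and 3.21% and the pig shares 1.55%, 3.17% and 1.57%. In pig Sertoli-like cells the thinned share was 0% in animals 1 and 2 and 0.478% in animal 3.

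Pig germ-like cells fell into 5 clusters, which differed in KIT. The clusters were made without KIT and without the stage genes named here. Cluster 14 (525 cells) held the most, 76.8 CPM, and cluster 12 (212 cells) held 49.3 CPM. Clusters 13 (353 cells) and 7 (372 cells, of which 362 from pig 1) held 18.9 and 16.3 CPM. Cluster 8 (105 cells), with the highest sum of meiotic genes, held 1.59 CPM from 1 UMI. By animal, cluster 14 held 31.7, 174 and 74.5 CPM in pigs 1 to 3, with only 19 cells in pig 2. Cluster 12 held 38.8, 52.9 and 50.2 CPM, and cluster 13 held 26.7 CPM (10 cells), 39.4 and 8.77 CPM. The order of clusters 14 and 12 was thus reversed in pig 1, where the counts were 10 and 9 UMIs.

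The stage genes are given as a description of pooled cells with the values of single pigs beside them, since the pigs made up unequal parts of the clusters. ZBTB16, a transcription repressor of undifferentiated spermatogonia, held 86.6 CPM in cluster 13, with 0 (10 cells), 74.7 and 93.1 CPM in pigs 1 to 3. In cluster 7 it held 47.0 CPM in pig 1, which gave nearly all of its cells. Cluster 12 held less ZBTB16, with 8.62, 19.8 and 13.2 CPM, as did cluster 14, with 0, 24.8 and 20.5 CPM. The cyclin gene CCND2 was lowest in cluster 14 at 10.0 CPM pooled, with 28.5, 49.6 and 7.01 CPM by pig. In pig 1 CCND2 held 129 CPM in cluster 7 and 125 CPM in cluster 12.

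Other genes linked with undifferentiated spermatogonia had their highest pooled level in cluster 12. EGR4 held 64.6, 107 and 148 CPM there in pigs 1 to 3, and UTF1 99.1, 71.05 and 106 CPM, in each pig the highest of the 5 clusters. GFRA1, the GDNF co-receptor, held 21.5, 23.1 and 15.8 CPM in cluster 12, and in pig 1 it was higher in cluster 13 from 1 UMI. DNMT3B, a DNA methyltransferase linked with differentiating spermatogonia, was highest in cluster 12 in every pig, at 17.2, 39.7 and 63.4 CPM. STRA8, which responds to retinoic acid, was highest in cluster 14 in every pig, at 44.3, 31.9 and 24.7 CPM, beside 17.2, 19.8 and 21.1 CPM in cluster 12 from 4, 12 and 8 UMIs. REC8, a meiotic cohesin, was also highest in cluster 14 in every pig, at 69.6, 35.4 and 47.2 CPM. In cluster 8 the synaptonemal complex gene SYCP1 held 683, 178 (7 cells) and 701 CPM and TEX101 2298, 223 and 2009 CPM. Cluster 12 thus held KIT together with genes of both spermatogonial lists. Cattle germ-like cells formed 1 cluster, of 517 cells, in which no such split could be read.

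**Figure D2:**
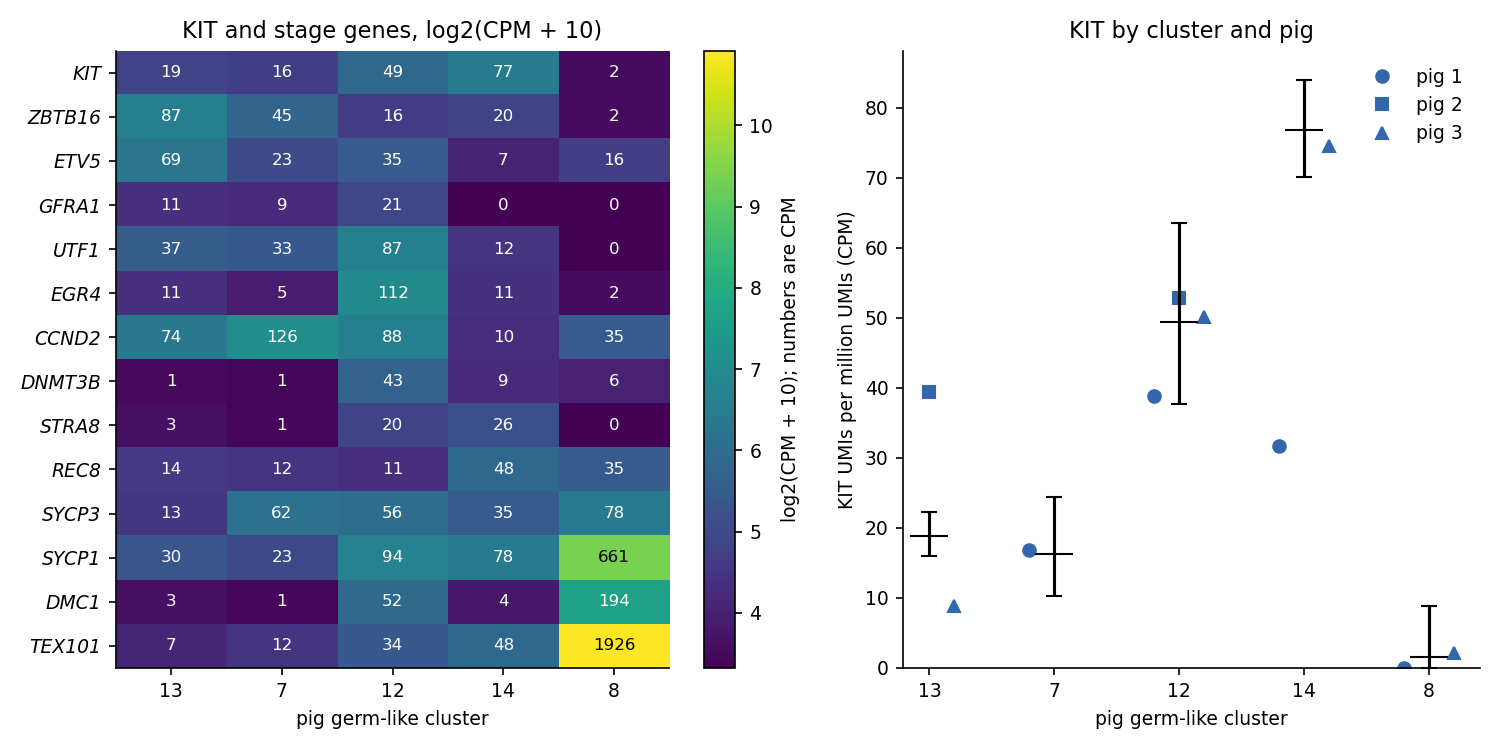
Left, KIT and stage genes in the 5 pig germ-like clusters, coloured by log2(CPM + 10) of the pooled cells with the CPM written in each cell. Right, KIT in CPM by cluster, where the bar and whisker are the pooled level with its exact interval and the symbols are pigs with at least 20 cells. KIT runs from 76.8 CPM in cluster 14 to 1.59 CPM in cluster 8.

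Cluster 8 was compared with the other pig germ-like cells over animals, with cells of pigs 1 and 3 on the meiotic-like side. KIT was lower in meiotic-like cells, with 1 UMI against 709, a pooled ratio of 0.0370 with an exact interval of 0.00093 to 0.207. The fitted log2 fold change was -4.83 (SE 0.93, adjusted p = 0.00035), where 14.8% of genes were called. It was -9.10 (adjusted p = 0.0824) without pig 3, which leaves 0 KIT UMIs on that side, and -0.87 (adjusted p = 0.30) with a minimum of 500 genes per cell, under which the clusters were formed anew. Among spermatogonial genes in the same fit, ZBTB16 was lower, at -5.14 (adjusted p = 7.3e-05) and CCND2 at -3.18 (adjusted p = 0.0007), both in log2 units. EGR4 and ETV5 were lower too, at -3.66 (adjusted p = 0.025) and -2.22 (adjusted p = 0.019). UTF1 was lower at -9.80 (SE 1.76, adjusted p = 0.00016). STRA8, GFRA1 and FGFR3 had 0 UMIs in cluster 8 and passed as well, at -8.23, -7.96 and -8.94. A fold fitted to 0 UMIs has no measured size. The value of UTF1 lies beyond these, so its size is not to be read as measured either. Other genes of the spermatogonial lists did not pass in this fit, namely ID4, RET, NANOS3, DNMT3B, REC8 and DMRTB1. DNMT3B had -0.38 (adjusted p = 0.81), REC8 0.45 (adjusted p = 0.60) and DMRTB1 0.78 (adjusted p = 0.81). The values of ID4 (-7.45, SE 2.87, adjusted p = 0.077), NANOS3 (-6.00, SE 4.30, adjusted p = 0.37) and RET (-4.26, SE 4.65, adjusted p = 0.55) were negative with wide errors.

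Germ-like cells were also split by whether a KIT UMI remained after thinning to 2000 UMIs per cell. This gave 3, 15 and 18 cells with KIT in cattle 1 to 3 and 19, 19 and 54 in pigs 1 to 3. Beside KIT, which made the split, 0 genes passed the test in cattle and 5 were lower in pigs, so that 0.013% and 0.0571% of genes were called with KIT counted. At an unadjusted p under 0.05 there were 433 of 7693 genes in cattle and 543 of 10510 in pigs. Of the 34 stage genes listed, only those with at least 10 counts were tested in a species. Of these 0 passed in either species, also with DESeq2. With the animal as a block 1 did in pigs, TEX101, a germ cell surface protein, at -1.84 on the log2 scale (adjusted p = 0.0119). The sides without KIT held cells whose KIT UMIs were lost in thinning. Unthinned, 113 germ-like cells of cattle 3 and 267 of pig 3 held a KIT UMI, where 18 and 54 remained. Among the sums with KIT, only that of pig 3 reached the minimum of 20 cells, which was not applied here. Without thinning 0 stage genes passed either, on sides of unequal depth. The thinned split therefore cannot decide whether stage genes differ with KIT.

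Endothelial-like cells of pigs held the highest KIT level of any named type. It was 318 CPM in pig 2 (646 UMIs, 294 to 344) and 138 CPM in pig 3 (370 UMIs, 124 to 153), or 228 ± 128 CPM (SD, n = 2). Pig 1 gave 5 such cells with 0 KIT UMIs and stayed out of the test. Against other cells the log2 fold change was 3.76 (SE 0.48, adjusted p = 0.0026), in a fit that called 14.6% of genes. With 1 pig left out it ran from 3.11 to 4.66 and passed the threshold, but without pig 2 or pig 3 only 1 endothelial-like sum remains, which is assumed to vary like the sums of other cells. KIT UMIs were seen in 66.1% and 57.8% of these cells, and in 15.3% and 7.69% after thinning to 500 UMIs. The 2 main clusters split by animal, with 348 cells of pig 2 in cluster 23 (318 CPM) and 299 cells of pig 3 in cluster 26 (143 CPM). Another cluster of 31 cells, led by the lymphatic gene CCL21, held 16.01 CPM from 2 UMIs (1.94 to 57.8). Of the mast cell genes CPA3, FCER1A and HPGDS had 0 UMIs here, MS4A2 had 1 and HDC 5, while GATA2, which endothelial cells also use, had 273 UMIs. Endothelial markers summed to between 3142 and 3348 CPM.

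In cattle the 134 endothelial-like cells held 6 KIT UMIs, all from animal 2. The levels were 0, 43.5 (15.95 to 94.6) and 0 CPM in animals 1 to 3, where the 0 of animal 1 rests on 24 cells and that of animal 3 on 46 cells. With 3 counts taken as the limit of a count of 0, these allow shares of cells with a UMI of up to 12.5% and 6.52%. A cluster of 27 cells led by CLEC14A and CA4 held 64.5 CPM, and a CCL21-led cluster of 107 cells held 0. Endothelial markers summed to between 1237 and 2492 CPM in the 3 animals. Against other cells the value was -0.63 (SE 1.03, adjusted p = 0.78), with 4.87% of genes called. The interaction with species was -4.17 (SE 1.09, adjusted p = 0.0767), with 1.22% of genes called. It passed the threshold with the animal as a block (-3.46, adjusted p = 4.98e-05) and with DESeq2 (-4.12, adjusted p = 0.014). CCL21-led clusters made up 107 of the 134 cattle cells, with all 24 of animal 1, but 31 of the 690 pig cells. The make-up of the type thus cannot be told apart from species in this interaction.

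The remaining cell types were low in KIT. In Sertoli-like cells it was 1.52, 1.13 and 2.77 CPM in cattle and 0, 0.891 and 0.900 CPM in pigs, below other cells at -3.38 (adjusted p = 0.0031) and -5.70 (adjusted p = 0.0034) on the log2 scale, with 33.2% and 24.8% of genes called. The pig value did not pass without pig 3 (adjusted p = 0.0532). Myoid and stromal-like cells, which form the tubule wall and connective tissue, held 5.95, 0.794 and 1.72 CPM in cattle and 0, 6.53 and 5.95 CPM in pigs. Their log2 values were -3.76 (adjusted p = 0.0058, 31.0% called) in cattle and -2.78 (adjusted p = 0.0471, 4.05% called) in pigs. The cattle call was lost without animal 3 (adjusted p = 0.112). The pig call was lost under 7 alternatives (adjusted p = 0.0539 to 0.27) and kept under 6, and the 7 include leaving out animal 2 (adjusted p = 0.23) or animal 3 (adjusted p = 0.25). Macrophage-like cells held 0, 0 and 5.42 CPM in cattle and 0, 4.18 and 6.17 CPM in pigs, with log2 values of -2.42 (adjusted p = 0.12, 13.2% called) and -2.37 (adjusted p = 0.0454, 10.4% called). In cattle lymphocyte-like cells KIT was 8.52, 4.09 and 7.95 CPM. The log2 value was -1.21 (adjusted p = 0.18, 23.0% called), and with the animal as a block it was -0.84 (adjusted p = 0.0276). The block also moved cattle macrophage-like cells to -2.09 (adjusted p = 0.0105).

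Ordered by mean level in cattle, KIT fell from Leydig-like to germ-like cells by 2.22 log2 units (adjusted p = 0.00045, 46.8% of genes called). Their mean levels were 114 and 44.5 CPM, which lie closer together than this fold. The fold is after the scaling of the fit (TMM), and this fit was not run with scaling by total UMIs. Germ-like and endothelial-like cells (1.28, adjusted p = 0.28, 24.5% called) and endothelial-like and lymphocyte-like cells (0.58, adjusted p = 0.89, 10.5% called) did not differ beyond their spread. Lymphocyte-like cells lay above myoid and stromal-like cells (2.15, adjusted p = 0.0209, 22.1% called), and neighbouring types below these did not differ beyond their spread. In pigs, endothelial-like cells lay above germ-like cells by 2.66 (adjusted p = 2.15e-05, 42.2% called), and germ-like above Leydig-like cells by 1.23 (adjusted p = 0.0496, 32.8% called). Leydig-like and myoid and stromal-like cells were not separated (1.69, adjusted p = 0.0973, 9.02% called), while macrophage-like cells lay above Sertoli-like cells (3.09, adjusted p = 0.0073, 21.6% called).

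**Figure D3:**
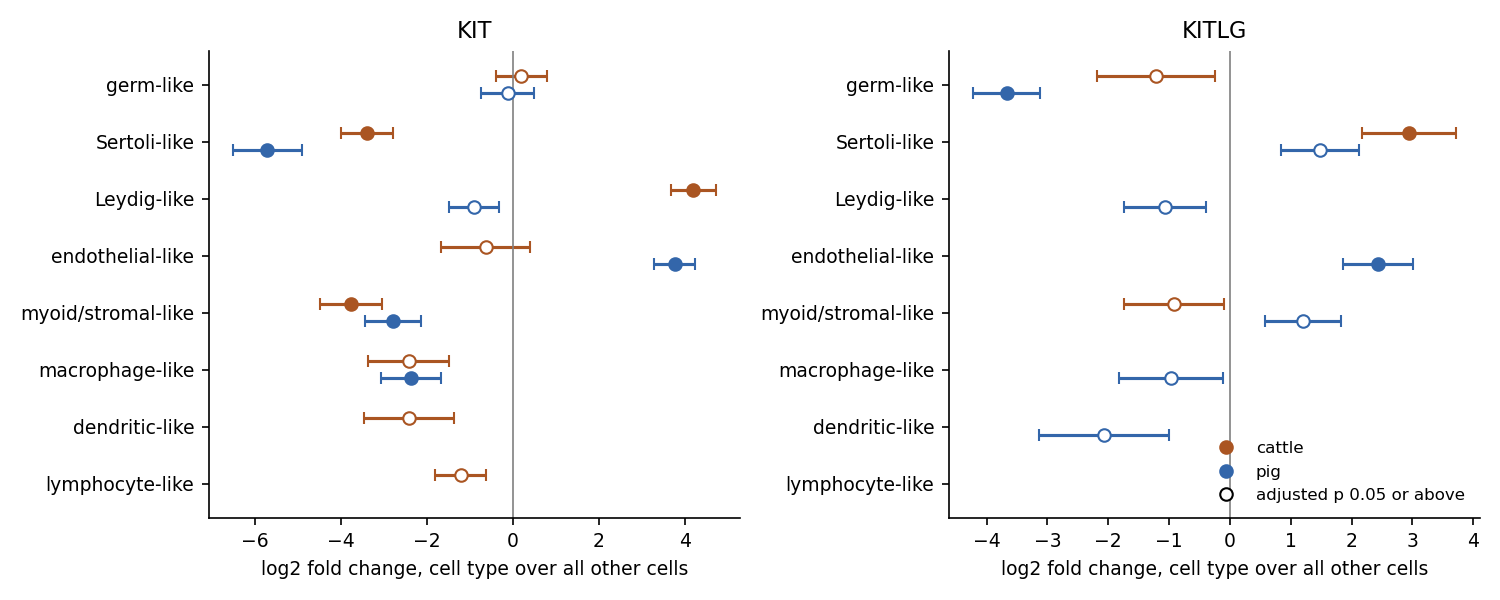
Log2 fold change (horizontal axis) of KIT, left, and KITLG, right, in each cell type against all other cells, with whiskers of 1 SE derived from the edgeR F statistic. Filled symbols passed the adjusted threshold of 0.05, and types with 0 UMIs of the gene have no symbol. KIT stands at 4.20 in cattle Leydig-like cells and at 3.76 in pig endothelial-like cells.

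KITLG in pigs was found in endothelial-like, myoid and stromal-like and Sertoli-like cells and was low in germ-like cells. Sertoli-like cells held 12.9 CPM in pig 1 (14 UMIs, 7.05 to 21.7), 39.1 CPM in pig 2 (395 UMIs, 35.3 to 43.1) and 62.1 CPM in pig 3 (69 UMIs, 48.3 to 78.6), or 38.0 ± 24.6 CPM (SD, n = 3). The 3 intervals did not overlap, and the order was that of the libraries' depth per cell. Germ-like cells held 2.94, 3.50 and 2.50 CPM (2.98 ± 0.50, SD, n = 3), below Sertoli-like cells in every pig. The log2 difference between germ-like and Sertoli-like cells was -3.70 (adjusted p = 3.58e-06), and that between germ-like and all other cells was -3.67 (SE 0.55, adjusted p = 0.0019). Sertoli-like cells against all other cells gave 1.48 (SE 0.64, adjusted p = 0.12). That value was 1.57 (adjusted p = 9.07e-05) with the animal as a block and 1.43 (adjusted p = 0.0351) without pig 1. The 5 Sertoli-like clusters ranged from 12.2 CPM in cluster 2 to 63.9 CPM in cluster 22. Cluster 22 gave 186 of the 209 Sertoli-like cells of pig 3. Under a second way of naming clusters it lost that name, and pig 3 kept 23 Sertoli-like cells.

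Pig endothelial-like cells held 84.3 CPM of KITLG in pig 2 (171 UMIs) and 61.1 CPM in pig 3 (164 UMIs), or 72.7 ± 16.4 CPM (SD, n = 2). Against other cells the log2 fold change was 2.44 (SE 0.57, adjusted p = 0.0293). It did not pass without pig 1 (2.099, adjusted p = 0.0736) or without pig 3 (2.40, adjusted p = 0.14). Myoid and stromal-like cells held 19.7, 41.4 and 67.5 CPM in pigs 1 to 3, again in the order of depth. Their log2 value was 1.21 (adjusted p = 0.30), and with the animal as a block 1.15 (adjusted p = 0.0096). Stromal cluster 3 held 89.6 CPM, and an unnamed cluster of 28 cells led by the pericyte genes RGS5 and NOTCH3 held 109 CPM, with 54.4 CPM of KIT. Endothelial-like, myoid and stromal-like and Sertoli-like cells were not separated in KITLG (0.90, adjusted p = 0.26, 13% called, and 0.12, adjusted p = 0.95, 10.5% called). Sertoli-like cells lay above macrophage-like cells (2.08, adjusted p = 0.0232). Leydig-like cells held 5.05, 14.99 and 10.3 CPM, from 4 UMIs in each pig.

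**Figure D4:**
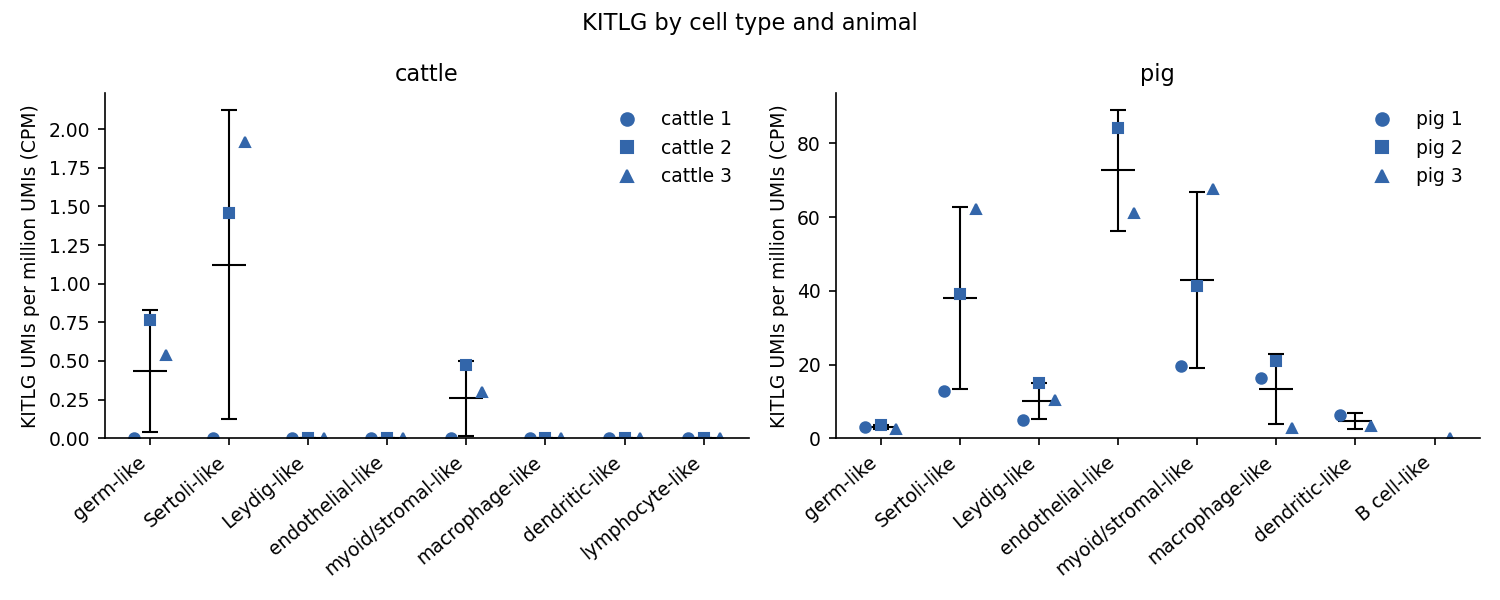
KITLG level in CPM (vertical axis, a separate scale for each species) by cell type, drawn in the same way, with 1 symbol for each animal, the mean and the SD. Pig Sertoli-like points lie at 12.9, 39.1 and 62.1 CPM, and the highest cattle point, in Sertoli-like cells, is 1.92 CPM.

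KITLG was rarely seen in cattle, with 37 UMIs in 17482 cells. Of these 27 lay in Sertoli-like cells, 7 in myoid and stromal-like cells and 3 in germ-like cells. Sertoli-like levels were 0, 1.46 and 1.92 CPM in animals 1 to 3 (0, 9 and 18 UMIs), or 1.12 ± 1.0001 CPM (SD, n = 3). The interval of cattle 1 reaches 5.60 CPM, which covers the levels of the other two animals. The Sertoli-like sum of cattle 3 was deeper than that of pig 3, with 9396723 against 1111249 UMIs of all genes, and held 18 against 69 KITLG UMIs. Pig 3 had the highest Sertoli-like level of the pigs. Breed, age and reference genome cannot be told apart from species here either. Against other cells the log2 fold change was 2.94 (SE 0.77, adjusted p = 0.0172). It was 3.28 without cattle 2 (adjusted p = 0.13) and 2.42 without cattle 3 (adjusted p = 0.24), and DESeq2 gave 2.78 (adjusted p = 0.0774). Against germ-like cells alone the value was 1.99 (adjusted p = 0.0665). The interaction with species was 1.52 (adjusted p = 0.42), with the higher value in cattle and 11.6% of genes called. It compares the contrast with other cells, not the Sertoli-like levels alone, whose means were 1.12 CPM in cattle and 38.0 CPM in pigs. In Leydig-like cells 0 of 908, 479 and 389 cells had a KITLG UMI, which by the same limit of 3 counts allows shares of up to 0.330%, 0.626% and 0.771%.

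Receptor and ligand were seen in the same cells mainly in the pig endothelium. Of 690 pig endothelial-like cells, 426 held a KIT UMI, 223 a KITLG UMI and 153 both. These are 68.6% of the cells with KITLG and 35.9% of those with KIT, where KIT was seen in 61.7% of all cells of the type. In pig 2 the share of KITLG cells with KIT was 71.4% and in pig 3 66.1%. Cells with a KIT UMI had a median of 6513 UMIs and the others 4164.5, and the part of depth in the joint detection was not tested. In pig germ-like cells 14 of 1567 cells held both, and in pig Sertoli-like cells 0 of 3651, with 10 cells holding KIT and 413 KITLG. In cattle 1 cell of 17482 held both.

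The signalling list held 65 genes, of which 56 could be tested in cattle and 54 in pigs. Beside genes that carry or brake the KIT signal it holds genes of shedding, such as MMP9, and regulators of KIT, such as ZBTB16 and DMRT1. Its counts are therefore not counts of signal carriers alone. In cattle germ-like cells against other cells 12 were higher and 14 lower, or 46.4% of those tested, where 23.2% of all genes were higher and 26.7% lower. In pigs 2 were higher and 17 lower, or 35.2%, where 17.3% of all genes were higher and 20.3% lower. The median log2 value was -0.22 in cattle, where that of all genes was -0.16, and -0.76 in pigs, where that of all genes was -0.08. Of 50 list genes tested in both species 8 were called in the same direction in both, or 16%, where 21.3% of all genes were.

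Among the 8 list genes, TIMP3, an inhibitor of metalloproteases, was lower in germ-like cells, at -5.16 in cattle (adjusted p = 9.5e-05) and -4.36 in pigs (adjusted p = 0.00039). Its germ-like levels were 27.3, 8.45 and 5.89 CPM in cattle and 10.8, 9.33 and 6.12 CPM in pigs. MMP9, a metalloprotease that can shed KITLG, was the member that rose, by 5.10 (adjusted p = 0.0052) and 3.51 (adjusted p = 0.0166), at levels of 0, 5.38 and 1.07 CPM in cattle and 3.91, 0.874 and 3.79 CPM in pigs. These low levels rest on few UMIs, with 0 in cattle 1, so the size of the rise is uncertain. Whether MMP9 met the minimum of 10 counts only through germ-like cells was not tested. STAT3, a transcription factor downstream of cytokine receptors, was lower, at -2.62 (adjusted p = 0.00021) and -2.19 (adjusted p = 0.0039), at 17.1, 9.22 and 7.23 CPM in cattle and 9.79, 12.8 and 13.7 CPM in pigs.

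SHC1, an adaptor that links the receptor to RAS, was lower, at -1.06 in cattle (adjusted p = 0.0088) and -2.25 in pigs (adjusted p = 0.0076). The cytoplasmic tyrosine kinase FES was lower, at -3.29 (adjusted p = 0.00039) and -4.57 (adjusted p = 0.003), and the SRC-family kinase FYN at -2.63 in both species (adjusted p = 0.00049 and 0.002). INPP5D, a lipid phosphatase that opposes PI3 kinase, was lower, at -2.99 (adjusted p = 0.0031) and -3.02 (adjusted p = 0.0292).

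In cattle Leydig-like cells 6 list genes were higher and 6 lower, or 21.4% of those tested, where 5.9% of all genes were higher and 8.87% lower. In pigs 5 were higher and 1 lower, or 11.11% of those tested. All genes gave 7.67%, with 4.5% higher and 3.17% lower. STAT3 was the 1 list gene of 50 that was called in the same direction in both species, where 2.6% of all genes were. It rose by 1.38 in cattle (adjusted p = 0.0113) and 1.96 in pigs (adjusted p = 0.0094). Its levels were 32.1, 64.4 and 34.9 CPM in cattle and 78.3, 67.4 and 121 CPM in pigs. PLCG2, a phospholipase C that receptor signalling activates, rose in cattle by 4.12 (adjusted p = 0.00096), at 39.8, 31.1 and 47.6 CPM. In pigs it was 13.9, 18.7 and 28.2 CPM and its value was 0.18 (adjusted p = 0.80). The interaction was 4.13 (SE 0.64, adjusted p = 0.0011). It compares the contrast with other cells, not the Leydig-like levels alone, whose means were 39.5 and 20.3 CPM. Among the other cells, germ-like cells held 0, 6.14 and 5.63 CPM of PLCG2 in cattle and 28.9, 56.2 and 23.3 CPM in pigs.

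STAT5A, another STAT factor, had 2.52 in pig Leydig-like cells (adjusted p = 0.0035) and 1.22 in cattle (adjusted p = 0.47). MAP2K2, a kinase of the MAP kinase chain, had 1.37 in cattle (adjusted p = 0.0059) and 1.26 in pigs (adjusted p = 0.059). DMRT1, a transcription factor of Sertoli and germ cells listed as a regulator of KIT, had -3.31 in pigs (adjusted p = 0.0046) and 0.51 in cattle (adjusted p = 0.77). In pig endothelial-like cells 10 list genes were higher and 3 lower, or 24.1% of those tested, where 8.07% of all genes were higher and 6.55% lower. Of the list, cattle Sertoli-like cells had 2 genes higher and 12 lower, beside 13.8% and 19.4% of all genes. Pig Sertoli-like cells had 6 higher and 9 lower, beside 9.95% and 14.9% of all genes.

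**Figure D5:**
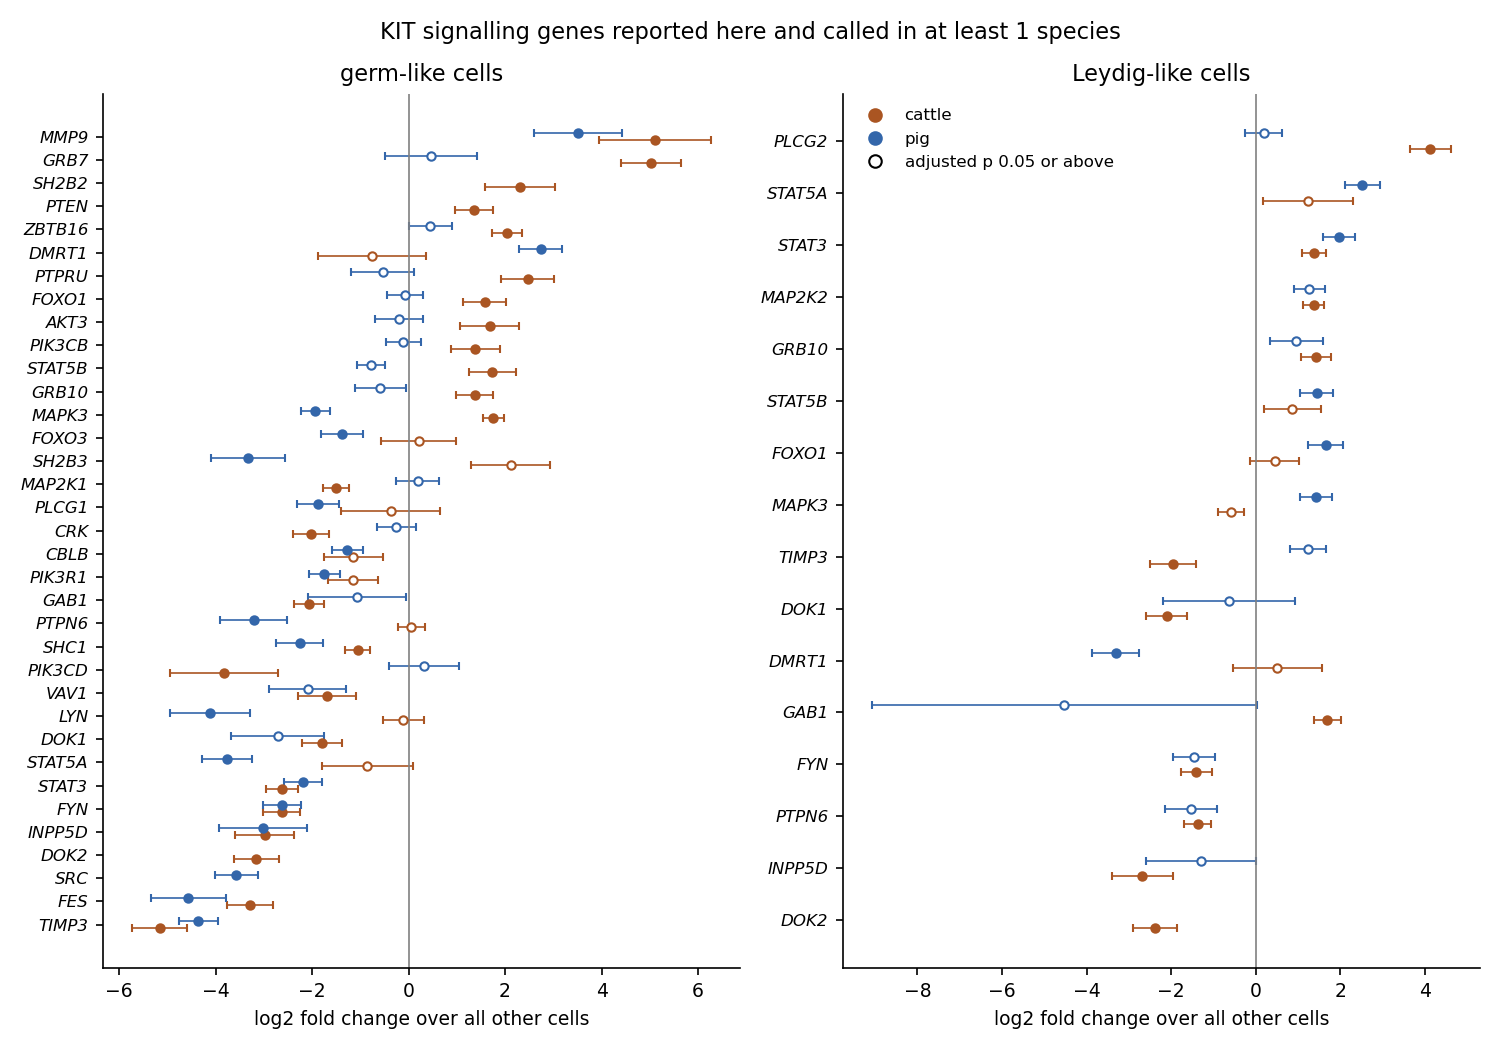
Log2 fold change (horizontal axis) of the signalling genes reported here and called in at least 1 species, in germ-like cells, left, and Leydig-like cells, right, against other cells, with whiskers of 1 SE. Filled symbols passed the threshold. TIMP3 lies at -5.16 in cattle and -4.36 in pigs in germ-like cells, and PLCG2 at 4.12 in cattle and 0.18 in pigs in Leydig-like cells.

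Receptors related to KIT were read in the same fits. CSF1R, the macrophage growth factor receptor, had its highest mean in macrophage-like cells, with 600 CPM in cattle and 555 CPM in pigs. KDR, a receptor for vascular endothelial growth factor, was higher in endothelial-like cells by 6.87 in cattle (adjusted p = 6e-06) and 6.41 in pigs (adjusted p = 0.00091). FLT1, another receptor of that factor, rose in pig endothelial-like cells by 5.53 (adjusted p = 0.00081) and in cattle germ-like cells by 4.59 (adjusted p = 0.00068). PDGFRA, a platelet-derived growth factor receptor, was lower in germ-like cells. Its cattle value was -4.44 (adjusted p = 4.4e-05) and its pig value -2.83 (adjusted p = 0.0209). Of 6 related receptors tested in cattle germ-like cells 2 were higher and 2 lower, beside 23.2% and 26.7% of all genes. In pigs 0 of 6 were higher and 5 lower, beside 17.3% and 20.3% of all genes. Among the ligands, PDGFA, made by Sertoli cells, rose in Sertoli-like cells by 2.90 in cattle (adjusted p = 0.00016) and 3.08 in pigs (adjusted p = 0.0117).

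Genes with a pattern most like that of KIT were ranked by the Pearson correlation of log levels over the sums of cell types and animals, which share libraries and depth. Over 24 cattle sums of 8 cell types the genes nearest to KIT included CALB2 (r = 0.87), CD24 (0.86), GRAMD1B (0.86) and IGFBP2 (0.84). Over 20 pig sums they were SNCG (0.98), CHRM2 (0.95), the endothelial transcription factor ERG (0.94), CYB561 (0.92) and OCLN (0.91). No gene stood in both lists. Each list holds only the few nearest of all genes, so this says nothing of a difference between the species. The nearest to pig KITLG were MSRB3 (0.91), PRSS23 (0.91), HES1 (0.88) and EFNB1 (0.88), and the nearest to cattle KITLG, whose levels rest on few UMIs, were MYOZ2, SLC4A5, ARL15 and ADCY9, with r from 0.92 to 0.96.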

How the data were processed

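Testis cells of 3 cattle and 3 pigs were captured with 10x Genomics version 2 chemistry, 1 library for each animal. The authors aligned reads and counted UMIs with Cell Ranger 2.1.0 on the builds ARS-UCD1.2 and Sscrofa11.1, and the deposited values are raw UMI counts per gene and barcode, with no normalization. The header of the pig matrices names another Cell Ranger release. The cattle matrices list all 737280 barcodes and the pig matrices only deeper ones, and the authors' own cell filters and cluster names were not used here.

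KIT, KITLG and the gene lists were chosen with earlier results of these data known. The labels repeat a title in each species, so animals were numbered in the order of their records. Cells were called by the rule of Cell Ranger 2 (3000 expected cells, the 99th percentile of UMIs divided by 10, which gave minimums of 460 to 3458 UMIs), with at least 200 genes. Scrublet scores marked doublets, and 0.8% per 1000 cells were removed. Cells were clustered with Scanpy 1.11.5 (2000 variable genes without the genes under study, 30 principal components, 15 neighbours, Leiden resolution 1), without integration across libraries. The rule for naming was set after the clusters were seen. The type with the highest mean log2 fold of its markers was taken. At least 3 of its markers had to be 2-fold over the median cluster and present in 5% of cells. A cluster stayed unnamed where an unrelated type had at least 5 such markers and a large part of that mean fold. It also stayed unnamed where an unrelated type had more of the 10 leading genes.

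UMIs were summed for each animal and cell type of at least 20 cells and compared with the sum of that animal's other cells by edgeR 4.0.16 (quasi-likelihood test, TMM scaling, at least 10 counts per gene, Benjamini-Hochberg adjustment over all genes, threshold 0.05). TMM moved the scale of a type against the rest by -0.52 to 1.14 on the log2 scale. The SE of an edgeR value was derived as the absolute log2 fold change over the square root of its F statistic. Neighbours in the order of levels, and a cell type with 1 other type, were compared in a fit over all cell types. That fit had no term for the animal and was not run with the animal as a block or with scaling by library size. In the comparisons with the rest the same animal gave both sums. Their deviations from the group means correlated at 0.12 to 0.47 in every pair of the 8 cell types so compared. Fits of these comparisons with the animal as a block are therefore given where they change a call. Self-tests on simulated counts were run first. Alternatives were scaling by library size, DESeq2 1.42.0, no filter, the block, each animal left out, other minimums of UMIs or genes, doublets kept and other clusterings. Comparisons of a cell type with 1 other type, the count of genes called in both species, the fits for further types and a second way of naming were added after seeing the data. List genes were named where called in the same direction in both species in germ-like or Leydig-like cells (up to 8 by the size of the smaller change), with 4 of the lowest adjusted p called in 1 species added where fewer than 4 were. Some genes that the rules for naming pick are not reported here. The mouse library was not analysed here.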

Additional observations from a re-analysis of the deposited data

Results flagged for a closer look

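The contrast of Leydig-like with other cells differed between the species for KIT, by 5.38 on the log2 scale (SE 0.81, adjusted p = 0.00084, edgeR interaction), with a higher value in cattle. PLCG2, the phospholipase C on the signalling list, differed in the same contrast by 4.13 (SE 0.64, adjusted p = 0.0011). Both values compare the contrast with other cells, not the Leydig-like levels alone. Near-empty cattle barcodes, which enter no comparison, held 18.4 CPM of KIT over the 3 libraries (64 UMIs, exact interval 14.1 to 23.4). Groups of 3 animals were too small to be searched for outlying animals.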

How the results depend on the processing

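Of the recomputed values that answer a comparison, 225 kept their direction and call, 18 counts or shares moved, 13 values reversed, 11 gained the call and 9 lost it. Of those for single genes or further cell types 166 kept both, 6 gained the call and 9 lost it. Leaving out 1 animal gave these ranges on the log2 scale. KIT in germ-like cells against others ran from -0.25 to 1.29 in cattle, from -0.30 to 0.042 in pigs and from -0.28 to 1.24 for the interaction. KIT in cattle Leydig-like cells ran from 3.68 to 4.55, KITLG in Sertoli-like cells from 2.42 to 3.28 in cattle and from 0.95 to 2.19 in pigs, and KIT in meiotic-like cells from -9.10 to -4.68. In endothelial-like cells KIT ran from -11.10 to 0.30 in cattle and from -15.00 to -3.27 for the interaction, where the lowest values come from a fit with 0 cattle UMIs and are no bounds, and KITLG in pigs from 2.099 to 3.22, where the single pig left is assumed to vary like the other groups. Signalling genes called ran from 12 to 30 and from 11 to 16 in germ-like cells and from 0 to 18 and from 0 to 5 in Leydig-like cells of cattle and pigs. With the animal as a block, KIT in germ-like cells was 0.76 in cattle and 0.12 in pigs, KITLG in pig Sertoli-like cells was 1.57, the interaction of KIT in endothelial-like cells was -3.46, Leydig-like signalling calls were 22 in cattle and 19 in pigs, and 1 stage gene was called in pigs. The block also called the interactions of KIT in Sertoli-like cells (3.21, adjusted p = 2.05e-05) and of KITLG in myoid and stromal-like cells (-2.07, adjusted p = 0.0197), and changed no call of KIT or KITLG that is not given here or with its result. Scaling by library size gave 0.21 for KIT in pig germ-like cells and 3 signalling calls in pig Leydig-like cells, against 6. It moved the share of higher genes among those called from 46.5% to 77.5% in cattle germ-like and from 39.95% to 13.9% in cattle Leydig-like cells. DESeq2 gave 2.78 for KITLG in cattle Sertoli-like cells, -4.12 for the endothelial interaction and 11 signalling calls in pig Leydig-like cells, and no filter gave -4.24 for that interaction and 12 of those calls. A minimum of 500 UMIs gave 0.25 for KIT in pig germ-like cells, -0.18 for its interaction and 2 signalling calls in pig Leydig-like cells. A minimum of 500 genes gave 3 of these calls, -0.87 for KIT in meiotic-like cells and 0.20 for KIT in cattle endothelial-like cells. Against 1 cell type in place of all others, KIT in germ-like cells against Sertoli-like cells was 3.78 in cattle and 5.52 in pigs, and KITLG in Sertoli-like against germ-like cells was 1.99 and 3.70. Thinned to 500 UMIs, the mean shares of cells were 2.58% for KIT in cattle germ-like cells against 27.8%, 2.096% in pig germ-like cells against 25.9%, and 11.5% for KIT and 2.77% for KITLG in pig endothelial-like cells against 62.0% and 32.7%. Genes called in all ran from 3575 to 9215 beside 7059 in cattle germ-like cells, from 2296 to 7173 beside 5704 in pig germ-like cells, from 0 to 4568 beside 2090 in cattle Leydig-like cells and from 644 to 4739 beside 2221 in pig endothelial-like cells. The causes of these changes were not tested. KITLG in cattle rests on 37 UMIs, shares of cells with a UMI moved with thinning as given, and the sums of cattle 1 and pig 1 come from the shallowest library of their species.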
